A study of Mus musculus with 4 samples.

Results

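Pleiotrophin (Ptn), midkine (Mdk), the receptor phosphatase Ptprz1, the 4 syndecans (Sdc1, Sdc2, Sdc3, Sdc4) and Gas1 were followed across 4 mouse RNA samples, each read on 1 single-colour Agilent whole-genome array. They were taken by gene name, as the probes that are not controls and carry 1 of these names in the scanner files: 14 probes of 39429, for 8 genes of 30222 named on the array. The genes were selected on their signals on these same arrays, that is, on log2 signal and on differences between arrays already known, so the values are descriptions and support no test. The samples were mesenchymal stem cells of C3H background derived from embryos, the ligament-like tissue that formed from such cells after transfection with a mouse gene called A in the pCAGGS vector, ligament of wild type C57BL/6J mice, and ligament of C57BL/6J mice transgenic for A. The transgene was introduced into fertilised eggs on the same pCAGGS plasmid, whose promoter is active in most cell types and is not specific to ligament. What A is, which ligament was taken, the age of the mice and whether animals were pooled are not given in the sources used here, and no cells carrying an empty vector were analysed here. With 1 array in each group, none of the differences could be checked against replicates or given a p-value. Cells and ligament differ at once in strain, in origin and in having been cultured, and these cannot be told apart.

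Pleiotrophin and midkine form a family of small secreted growth factors that bind heparan sulphate and chondroitin sulphate chains. Ptprz1 is a cell surface phosphatase that carries chondroitin sulphate chains and binds both factors. Syndecans are transmembrane proteins with heparan sulphate chains that hold such ligands at the cell surface, and syndecan 3 is a known pleiotrophin receptor of the nervous system. Gas1, named for its expression in growth-arrested cells, is a membrane-anchored co-receptor for Hedgehog ligands. Pleiotrophin is known in connective tissue from cartilage and bone, where it accompanies skeletal growth.

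For Ptn, Ptprz1 and Gas1 the sequence of 1 array probe each is shown, because these genes have several probes that did not always give 1 answer. The Ptn probe is the one that represents its gene. The Ptprz1 and Gas1 probes shown are not those that represent their genes. Each is 60 bases long, and positions are those of the files, in build mm9. Capitals mark unbroken runs of at least 6 G or C letters. No mm9 annotation was used, so exon and untranslated region are not assigned. The Ptn probe (chr6:36691376-36691435, minus strand, 53.3% G and C) and the Ptprz1 probe (chr6:23002046-23002106, plus strand, 45.0%) hold no such run. The Gas1 probe (chr13:60277268-60277327, minus strand, 85.0%) is the one of 3 Gas1 probes that was nearly level between cells and ligament.
Ptn: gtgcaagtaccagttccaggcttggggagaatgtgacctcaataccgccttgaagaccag
Ptprz1: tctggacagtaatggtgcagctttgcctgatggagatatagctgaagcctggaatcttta
Gas1: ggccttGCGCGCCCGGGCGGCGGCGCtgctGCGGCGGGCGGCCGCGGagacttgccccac

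Signal is given as log2 of the scanner's processed signal relative to the 75th percentile of its array, so that 0 is the level exceeded by 25 in 100 probe spots. A gene with several probes is represented by the one with the highest mean over the 4 arrays. Errors are those the scanner software assigned to the spot, 10.0% to 17.8% of the signal for the 8 representing probes, and they leave out any spread between cultures or animals. The 8 representing probes were well above background on every array. Calls of higher or lower start at a 2-fold difference, which is 1 on the log2 scale. A fold is written as a bound where 1 of the arrays was not well above background and the weakest signal that passed there was used instead. Levels are compared within a probe and never between probes.

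The arrays differed widely in what they held. The 75th percentile of processed signal ran from 285 to 2272 intensity units, and 49.0% to 56.3% of spots were well above background. Tendon and ligament markers were well above background for 7 or 8 of 8 genes on every array. Mkx was not in wild type ligament, Thbs4 not in the transfected tissue and Kera not in stem cells. Of 8 stromal markers 7 were well above background on each cell array, where Nt5e was not, and all 8 in both ligaments. Their summed signal was 138 times the 75th percentile in stem cells and 82.3 in the transfected tissue, against 11.2 in wild type and 14.1 in transgenic ligament. Skeletal muscle markers summed to 6572 times the 75th percentile in wild type and 5902 times in transgenic ligament, against 2.01 in stem cells and 0.716 in the transfected tissue. The 8 neutrophil and erythroid markers summed to 1698 in wild type and 531 in transgenic ligament, and to at most 0.288 on the cell arrays. The part of these other tissues in the differences below was not tested.

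Pleiotrophin was the member that differed most between cells and ligament. Stem cells had a log2 signal of 6.07 and the transfected tissue of 6.70, against -1.23 in wild type and -0.35 in transgenic ligament. In processed signal these are 78406, 235604, 122 and 238 intensity units. Both cell arrays lay far above both ligament arrays. Wild type ligament was lower than stem cells by 158-fold (log2 difference -7.30 ± 0.21, scanner error), and of 18528 genes compared only 6 had a more negative difference. The transfected tissue was 243-fold higher than wild type ligament (7.92 ± 0.21), with 3 of 18358 genes further up. Stromal markers went the same way, with 7 of 8 lower and 1 higher in wild type ligament than in stem cells (median -1.93), and 5 of 8 higher and 1 lower in the tissue than in wild type ligament (median 1.69). Their part in the differences of Ptn, Gas1 and the syndecans was not tested. In a bulk sample fewer cells of a type and less RNA per cell cannot be told apart, so these values do not say which cells of the ligament carried the transcript. The second Ptn probe ran the same way, at 5.22 in stem cells, 6.27 in the transfected tissue and -1.60 in transgenic ligament, and it was not well above background in wild type ligament.

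The smaller differences of Ptn lay close to the 2-fold line. Between the transfected tissue and stem cells the representing probe was 1.54-fold higher in the tissue (0.62 ± 0.20) and the second probe 2.06-fold (1.04 ± 0.20), so only the second was past 2-fold. With quantile normalization the representing probe differed by 1.64 and with the deposited value table by 1.51. Between transgenic and wild type ligament the representing probe was 1.84-fold higher in the transgenic sample (0.88 ± 0.22). The second was 2.48-fold higher, from its own signal in wild type ligament, which was not well above background. The order of the 4 arrays, from the transfected tissue through stem cells and transgenic ligament to wild type ligament, was the same in both probes.

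Midkine, the other factor of the family, ran the opposite way between cells and ligament and was dim everywhere. Stem cells had a log2 signal of -3.25 and the transfected tissue of -3.29, against -1.51 in wild type and -1.47 in transgenic ligament. The ligament arrays lay together above the cell arrays, and within each pair the levels of this representing probe nearly coincided. Wild type ligament was 3.35-fold higher than stem cells (1.74 ± 0.23), near the upper quartile of all genes in that comparison, at percentile 75.3. Before scaling, the processed signal of this probe was 100.2 units in wild type ligament and 122 in stem cells. The 75th percentiles of these arrays were 285 and 1165 units, so the higher value of this probe in ligament arose with the scaling. The tissue differed from stem cells by -0.04 ± 0.23 and transgenic from wild type ligament by 0.04 ± 0.23, both within the scanner error. A second Mdk probe, whose position spans 762 bases of the genome for 60 bases of sequence, was not well above background in stem cells. It was at least 17.7-fold higher in wild type ligament than in stem cells and 10.3-fold lower in the transfected tissue than in wild type ligament. Before scaling, this second probe was at 91.7 units in wild type ligament and 11.9 in stem cells, already higher in ligament. In the tissue it was well above background and at least 1.72-fold higher than in stem cells, which the representing probe did not show. The direction between cells and ligament was thus shared by both probes and the size was not.

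**Figure D1:**
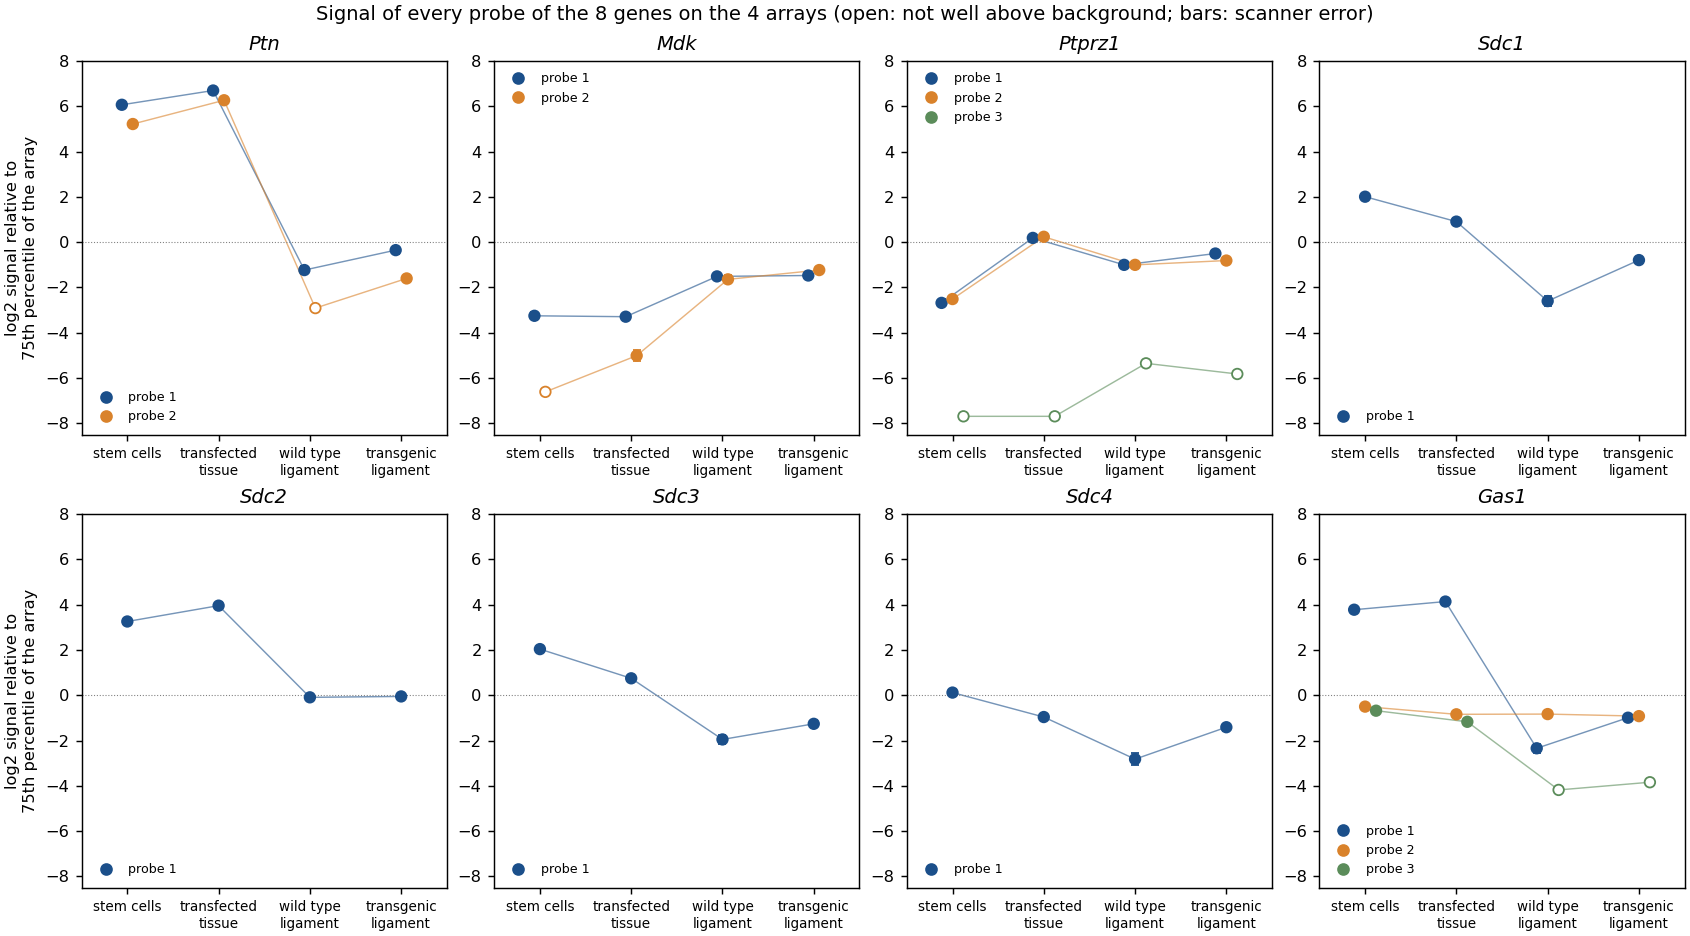
Each panel plots 1 gene, with log2 signal relative to the 75th percentile of the array on the vertical axis and the 4 arrays on the horizontal axis. Colours mark the probes of a gene (probe 1 represents the gene), open circles were not well above background, bars are the scanner's error where well above background, and lines only join points of a probe. Ptn is at 6.07 and 6.70 on the cell arrays and at -1.23 and -0.35 in ligament, and the Gas1 probes part in ligament.

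Ptprz1, the receptor phosphatase, was the only member whose representing probe was past 2-fold upwards in the transfected tissue over stem cells. The second Ptn probe was past it too (2.06-fold). With quantile normalization Ptn (1.64) and Sdc2 (1.07) also passed, and Ptn with the deposited value table (1.51). For Ptprz1, stem cells had a log2 signal of -2.68 and the tissue of 0.19, against -1.00 in wild type and -0.50 in transgenic ligament. Stem cells were lowest, the ligaments lay between, and the tissue was highest. The tissue was 7.33-fold higher than stem cells (2.87 ± 0.21), and 156 of 17793 genes compared had a larger difference. The neighbouring probe on chromosome 6, printed above, gave 6.75-fold (2.75 ± 0.21). Wild type ligament was 3.20-fold higher than stem cells (1.68 ± 0.22). It was 2.29-fold lower than the tissue (1.19 ± 0.21 for tissue minus ligament), the latter 0.87 with normexp background correction. Before scaling, the processed signal was 142 units in wild type ligament and 181 in stem cells, so the higher value in ligament arose with the scaling. Transgenic and wild type ligament differed by 0.50 ± 0.22, short of 2-fold. The third probe named Ptprz1 in the files is placed on another chromosome and was not well above background on any array. In the mean over all 3 probes the tissue differed from wild type ligament by only 0.03, and leaving out that probe gave 1.22.

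Nerve and Schwann cell markers, whose cells are known to express Ptprz1, had no common direction in the tissue. Of 8 markers, 7 were compared between tissue and stem cells, with 2 higher, 2 lower and a median of 0.52. Their summed signal was 3.90 times the 75th percentile in the tissue and 5.35 in stem cells, with Sox10 not well above background on either array. Their part in the Ptprz1 difference was not tested further.

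The other receptors and partners of the 2 growth factors followed no common direction after transfection. In the tissue against stem cells 2 of 10 were higher and 2 lower, with a median log2 difference of 0.44 against -0.08 over all genes, of which 10.9% were higher and 13.3% lower. The endocytic receptor Lrp1, which binds midkine, was 2.70-fold higher in the tissue, and the integrin subunit Itgb3 was lower (-1.08). In wild type ligament against stem cells 6 of 10 were lower and 2 higher, with a median of -1.11. Over all genes 21.9% were lower and 33.7% higher there, so that 55.6% passed 2-fold, and counts of every gene list in this comparison stand beside that share. Among them Lrp1 differed by -1.05, and neuropilin Nrp1 was at least 3.61-fold lower. The leukocyte integrin subunit Itga4 was at least 65.1-fold higher in ligament, where blood cell markers were also far higher. Transgenic against wild type ligament gave 1 of 10 higher and none lower, where 6.10% of all genes were higher and 6.82% lower.

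The syndecans divided by member in the tissue. Sdc2, the syndecan of fibroblasts and other mesenchymal cells, had a log2 signal of 3.26 in stem cells, 3.96 in the tissue, -0.09 in wild type and -0.05 in transgenic ligament. Its value in the tissue was 1.63-fold that in stem cells (0.70 ± 0.20), short of 2-fold, while the other syndecans had lower values there. With quantile normalization that difference was 1.07. The 2 ligaments differed by 0.04 ± 0.21, within the scanner error. Wild type ligament was 10.2-fold lower than stem cells (-3.35 ± 0.21), and the tissue 16.6-fold higher than ligament.

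Sdc1, Sdc3 and Sdc4 were lower in the tissue than in stem cells, each a little past 2-fold. Sdc1, known from epithelia and plasma cells, was at 2.01 in stem cells, 0.91 in the tissue, -2.60 in wild type and -0.79 in transgenic ligament. Sdc3 was at 2.04, 0.75, -1.95 and -1.26 in the same order. Sdc4, a syndecan of focal adhesions, was at 0.12, -0.96, -2.82 and -1.41. All 3 share the order stem cells, tissue, transgenic ligament, wild type ligament. This order is of single arrays, and the share of all genes that have it was not computed. The tissue differed from stem cells by -1.10 ± 0.20 in Sdc1, -1.29 ± 0.20 in Sdc3 and -1.08 ± 0.20 in Sdc4. Before scaling, the processed signals of Sdc1 were close, at 4262 units in the tissue and 4687 in stem cells. Those of Sdc4 were 1169 and 1268 units and those of Sdc3 3827 and 4794, in the same order. The 75th percentiles of these arrays were 2272 and 1165 units. Over the alternative settings the differences ran from -1.10 to -0.96 in Sdc1, from -1.29 to -1.14 in Sdc3 and from -1.08 to -0.94 in Sdc4, so only Sdc3 was past 2-fold in all of them. Cell division markers were lower in the tissue in 8 of 8 genes, with a summed signal of 13.8 against 142 in stem cells. Whether the syndecan differences go with growth state was not tested.

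Against stem cells, wild type ligament was 24.4-fold lower in Sdc1 (-4.61 ± 0.26), 15.9-fold in Sdc3 (-3.99 ± 0.23) and 7.67-fold in Sdc4 (-2.94 ± 0.30). The spot signals behind these ligament values were low, 47.1 units for Sdc1 and 40.5 for Sdc4. With normexp background correction the Sdc4 difference was -1.67.

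Transgenic ligament was higher than wild type ligament in Sdc1 and Sdc4. Sdc1 was 3.51-fold higher (1.81 ± 0.27), with 265 of 16894 genes further up, and Sdc4 was 2.65-fold higher (1.41 ± 0.30), with 512 further up. Sdc3 was 1.61-fold higher (0.69 ± 0.23), short of 2-fold. Normexp background correction gave 0.98 for Sdc1 and 0.63 for Sdc4, below 2-fold. Epidermal markers were higher on the transgenic array in 7 of 8 genes, with a summed signal of 167 against 36.5 in wild type ligament and all 8 markers well above background on both arrays. Tendon and ligament markers were higher in 6 of 8 genes and lower in none, with a median of 1.72, among them Comp (2.58), Tnmd (2.45), Fmod (2.15) and Scx (1.08), although their summed signal was 147 in transgenic and 161 in wild type ligament. Bone markers were higher in 4 of 6 compared (187 against 47.1) and cartilage markers in 3 of 7 (7.71 against 2.05). Of 8 plasma and B cell markers 5 were lower and none higher, although their summed signal was 28.4 in transgenic and 23.9 in wild type ligament. The largest term of that sum was Xbp1, at log2 4.68 in transgenic and 4.02 in wild type ligament. Xbp1 was at 3.99 in stem cells too, where only 2 of the 8 markers were well above background. Epidermis is known to express Sdc1 and Sdc4, and the part of these markers in the syndecan differences was not tested.

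Gas1 resembled Ptn more than any other member did. Its log2 signal was 3.78 in stem cells and 4.14 in the tissue, against -2.34 in wild type and -0.99 in transgenic ligament. Wild type ligament was 69.6-fold lower than stem cells (-6.12 ± 0.24), with 20 of 18528 genes lower still. The tissue was 89.3-fold higher than wild type ligament (6.48 ± 0.24), with 10 of 18358 genes further up. The tissue and stem cells differed by 0.36 ± 0.20, within 2-fold. The other Gas1 probes gave -0.49 ± 0.20 and -0.34 ± 0.20 there, so the direction was not shared. Transgenic ligament was 2.55-fold higher than wild type ligament (1.35 ± 0.25), but other settings ended that call. The difference was 0.71 with normexp background correction and 0.53 in the mean of all 3 probes.

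The Gas1 probes did not agree on the size of the differences that involve ligament. The representing probe lies at chr13:60276399-60276458 and holds 38.3% G and C. A second probe, with 60.0%, was at -0.68 in stem cells and -1.17 in the tissue and was not well above background in either ligament, where it was at least 6.64-fold lower than in stem cells. The probe printed above, with 85.0%, was nearly level over the arrays, at -0.50 in stem cells, -0.84 in the tissue, -0.83 in wild type and -0.92 in transgenic ligament. It was well above background on all of them. Transgenic and wild type ligament differed by -0.09 ± 0.21 in it. Its difference between wild type ligament and stem cells was -0.33 ± 0.21 where the representing probe gave -6.12. In the mean of all 3 probes the difference was -3.32, and without the GC-rich probe it was -4.81. In that comparison 10 probes with at least 80% G and C were well above background in both samples, and their median size of difference was 2.12, against 1.20 over 16771 probes. In the tissue against wild type ligament the medians were 1.17 and 1.20, and in transgenic against wild type ligament 0.25 and 0.34. So few probes do not describe GC-rich probes in general. The cause of the level signal of this Gas1 probe was not tested.

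**Figure D2:**
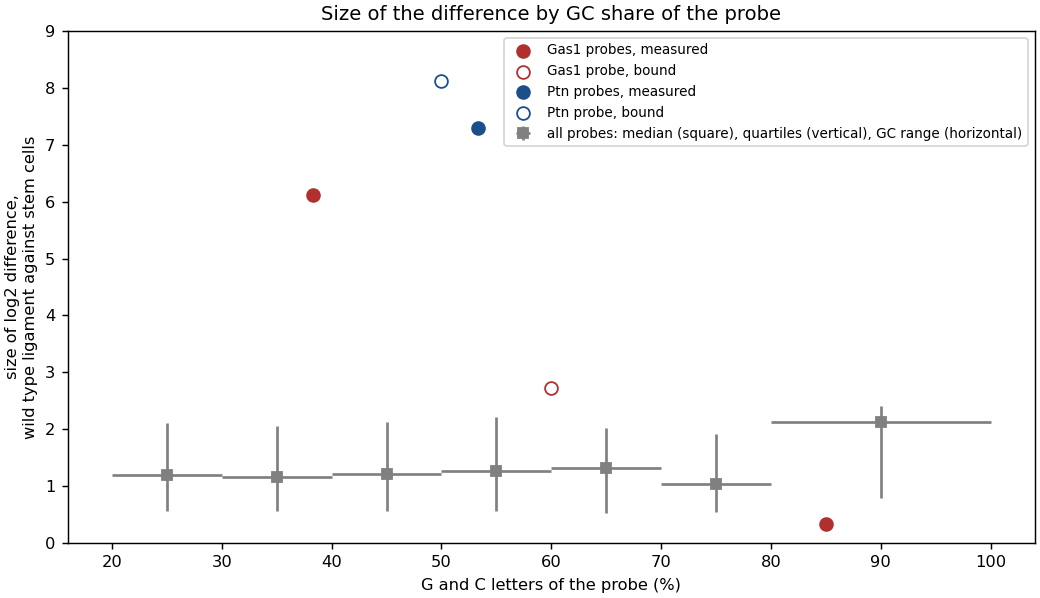
The size of the log2 difference between wild type ligament and stem cells is plotted against the percent of G and C letters in the probe. Grey squares are medians over all probes well above background in both samples by GC range. Vertical lines are quartiles and horizontal lines the range, and the lowest range takes in all probes under 30%. Coloured circles are the Gas1 and Ptn probes, open (labelled as a bound) where the probe was not well above background in wild type ligament. The Gas1 probe at 85.0% lies at 0.33 while its range has a median of 2.12.

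Genes of Hedgehog signalling had no common direction. Wild type ligament against stem cells gave 3 of 12 higher and 3 lower, with a median of 0.00. The lower ones were the co-receptor Boc (-3.50), the signal transducer Smo (-3.96) and the transcription factor Gli3, at least 36.9-fold lower. Gli1, itself a transcriptional target of the pathway, was at least 15.2-fold lower in the tissue than in stem cells, at -1.79 in stem cells and not well above background in the tissue. There the median was -0.14, with 2 of 11 higher and 2 lower, where 10.9% of all genes were higher and 13.3% lower. Transgenic against wild type ligament gave 1 higher and 1 lower of 10.

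The sugar chains of syndecans and Ptprz1 are built by dedicated enzymes. Of 17 genes of heparan sulphate synthesis and trimming, 9 were lower and 3 higher in wild type ligament than in stem cells, with a median of -1.09 against 0.00 over all genes, of which 21.9% were lower and 33.7% higher. The sulphotransferase Hs6st2 differed by -4.77, the extracellular sulphatase Sulf2 by -3.80 and the chain polymerase Ext1 by -3.75. Of 15 genes of chondroitin and dermatan sulphate synthesis, 10 were lower and 2 higher, with a median of -2.32. The dermatan sulphotransferase Chst14 differed by -4.99 and Chst7 by -4.36. In transfected tissue against wild type ligament the chondroitin genes had a median of 2.59, with 11 of 14 higher and 1 lower, where all genes had -0.10, with 20.6% higher and 35.6% lower. Both comparisons share the wild type ligament array and are not separate observations. In the tissue against stem cells 1 of 17 heparan genes was higher and 2 lower, and 3 of 15 chondroitin genes were higher and 2 lower. Over all genes 10.9% were higher and 13.3% lower in that comparison. Sulf2 was 2.74-fold higher in the tissue, and heparanase (Hpse), which cuts heparan sulphate, was at least 7.66-fold lower.

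Other membrane proteoglycans gave a mixed picture. Of 8 glypicans and related genes, 4 were lower and 2 higher in wild type ligament than in stem cells. Gpc3 was at least 68.1-fold higher in ligament and Gpc1 2.71-fold higher, whereas Gpc4 was at least 6.90-fold lower. Agrn differed by -1.49. In the tissue against stem cells 1 of 7 was higher and 1 lower, where 10.9% of all genes were higher and 13.3% lower. Between the ligaments none of 7 passed 2-fold, where 12.9% of all genes did.

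Of 10 syndecan partners and sheddases, 4 were higher and 3 lower in wild type ligament than in stem cells. The membrane-bound metalloproteinase Mmp14, able to cut syndecan ectodomains, was 2.97-fold higher in the tissue than in stem cells. The exchange factor Tiam1, which binds the syndecan tail, was 2.07-fold lower, from its own signal in the tissue, which was not well above background. The syntenin relative Sdcbp2 was at least 4.27-fold lower. In all, 1 of the 10 was higher there and 2 lower. Among 12 other heparin-binding growth factors, 2 were higher and 3 lower in the tissue than in stem cells. Fgf10 was 5.86-fold higher and the chemokine Cxcl12 differed by -2.19. Fgf1 was at least 115-fold higher in wild type ligament than in stem cells, and Hgf at least 26.4-fold lower.

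**Figure D3:**
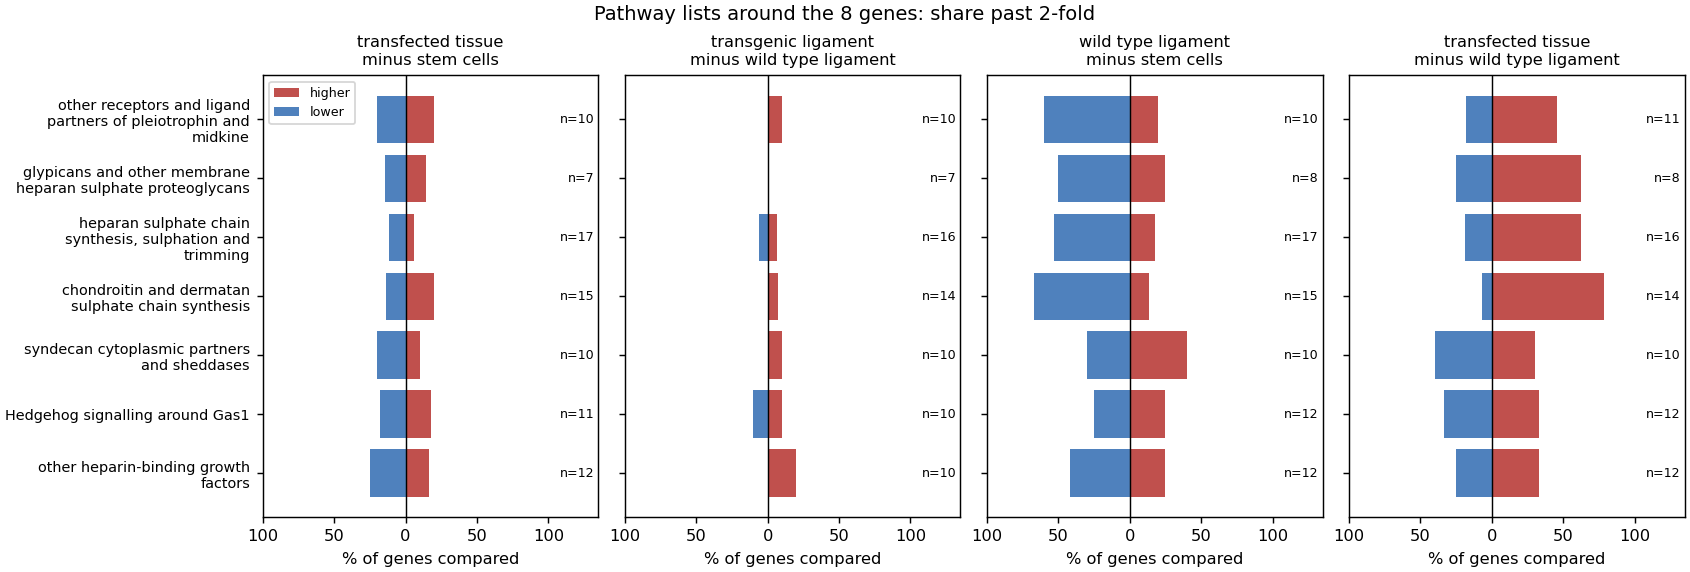
Bars give the percent of the genes compared in each pathway list that were at least 2-fold higher (red, to the right) or lower (blue, to the left), with 1 panel per comparison and n the number of genes compared. In wild type ligament minus stem cells 10 of 15 chondroitin genes are lower, and in transgenic minus wild type ligament at most 2 genes of a list pass in either direction.

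Counted over the 8 members, the comparison of wild type ligament with stem cells had 6 lower and 2 higher, so every member was past 2-fold where 55.6% of all genes were (33.7% higher and 21.9% lower). Their median log2 difference was -3.67, against 0.00 over the 18528 genes. The transfected tissue against wild type ligament had 7 higher and 1 lower, where 56.2% of genes were past 2-fold (20.6% higher and 35.6% lower), with a median of 3.10 against -0.10. Those comparisons share the wild type array. The tissue against stem cells had 1 higher (Ptprz1), 3 lower (Sdc1, Sdc3, Sdc4) and 4 within 2-fold, where 24.2% of genes were past it (10.9% higher and 13.3% lower), with a median of 0.16 against -0.08. Transgenic against wild type ligament had 3 higher (Sdc1, Sdc4, Gas1), none lower and 5 within 2-fold, where 12.9% of genes were past it (6.10% higher and 6.82% lower), with a median of 0.78. The split of all genes moved with the scaling. In the tissue against stem cells 2422 genes were higher and 1934 lower with the percentile taken over probes well above background on all arrays, in place of 1937 and 2375. Quantile normalization gave 5320 higher and 5231 lower for wild type ligament against stem cells, in place of 6239 and 4064, and 5083 and 5127 for the tissue against wild type ligament, in place of 3786 and 6530. The deposited value table gave 5248 and 5336, and 5190 and 5068. The median over all genes in the tissue minus stem cells ran from -0.17 with normexp to 0.06 with the other percentile. The members were chosen with these values in view, so nothing is read from the shares. The representing probes of all 8 members had a value above 0 in transgenic minus wild type ligament, from 0.04 in Mdk and Sdc2 to 1.81 in Sdc1. The median over all genes was -0.00 there. The Mdk and Sdc2 values lay within their scanner errors of 0.23 and 0.21, and the GC-rich Gas1 probe was at -0.09.

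**Figure D4:**
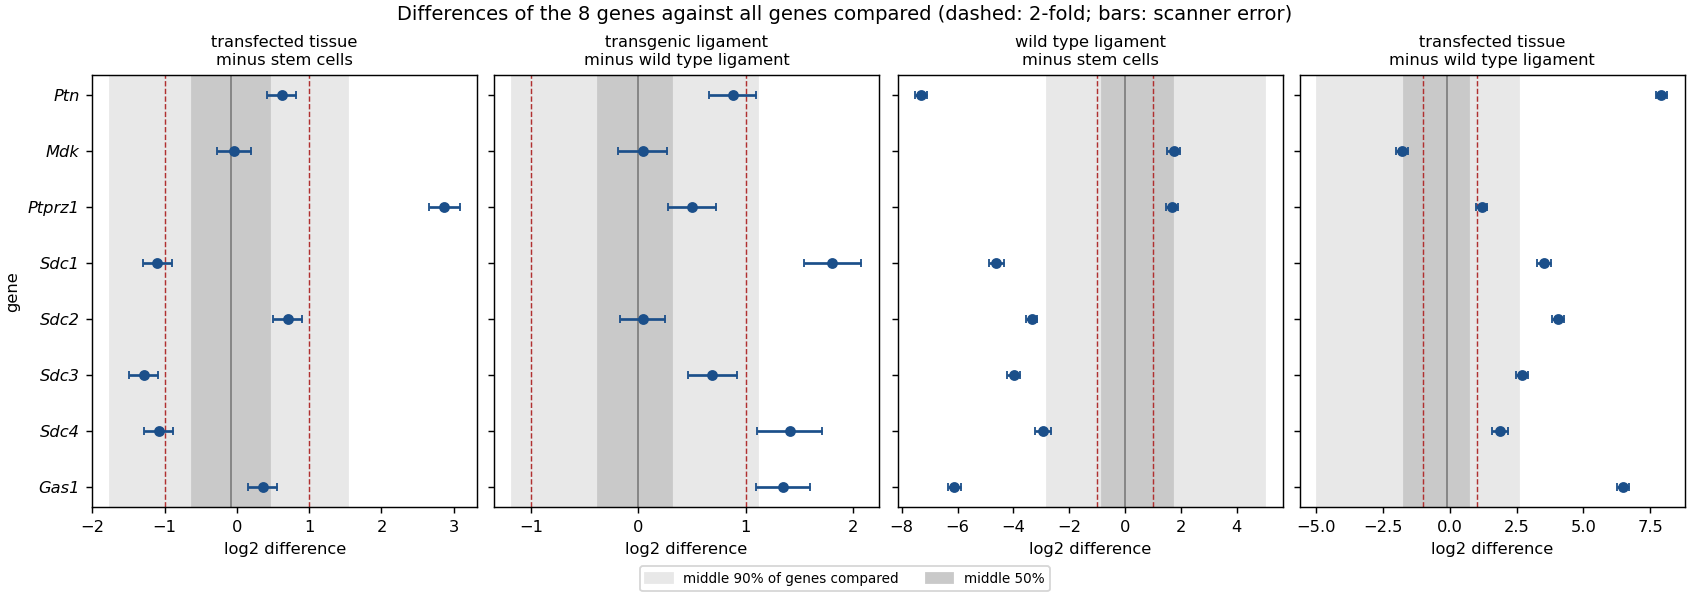
Points are the log2 differences of the representing probe of each gene with bars for the scanner error, in 4 comparisons with separate horizontal scales. Grey bands hold the middle 50% and 90% of all genes compared, and dashed lines mark 2-fold. Ptn at -7.30, Gas1 at -6.12 and all syndecans lie outside the bands in wild type ligament minus stem cells. Ptprz1 at 2.87 does so in transfected tissue minus stem cells.

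Profiles over the 4 arrays were also set against all 12966 other genes well above background on every array, by the root mean square distance of log2 signals after centring each gene on its own mean. Between members the distance was smallest for Sdc1 and Sdc3 (0.41), then Sdc3 and Sdc4 (0.70), and Gas1 lay 0.80 from Ptn. Nearest to Ptn were the Wnt receptor Fzd2 (0.56), the matricellular gene Wisp2 (0.58) and the cyclin Ccnd1 (0.76). Nearest to Gas1 were D4Bwg0951e (0.22), Fbxl7 (0.36) and the homeobox gene Prrx2 (0.37). Ptprz1 had the closest match in the matrix gene Abi3bp (0.05), which was likewise highest in the tissue and lowest in stem cells, followed by Gdpd1 (0.16) and Gramd1b (0.17). Sdc1 lay near Tmem45a (0.11) and the vitamin D receptor Vdr (0.15). Sdc2 lay near NAP111644-1 (0.07), Tmtc4 (0.09) and Efhd1 (0.13). Sdc4 lay near Fam19a5 (0.11), the fatty acid elongase Elovl1 (0.14) and the virus receptor Cxadr (0.17), and Sdc3 near Rps6ka4 (0.03), the oncostatin M receptor Osmr (0.06) and Col16a1 (0.10). With 4 points a profile is short, and close matches among many genes are common, as for Mdk with Lias (0.00 after rounding), Fam118b (0.03) and Tbx10 (0.05).

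The sequence upstream of the transcript start was available from RefSeq (build GRCm38.p6) for 6 of the 8 members. The 250 bases before the start are shown for Ptn and Gas1, whose signals lie high in cells and low in ligament, and for Ptprz1, which was lowest in stem cells. Both strands were searched for 5 motifs. The TATA box was searched as TATAAA. For the CCAAT box the letters were those of its name. The GC box was searched as GGGCGG. An E-box was any match to CANNTG. The AP-1 site was searched as TGANTCA, and no motif of these holds another. Capitals mark matches to the CCAAT box and the GC box. These windows are at chr6:36810180-36810429 (minus strand) for Ptn, chr13:60177536-60177785 (minus strand) for Gas1 and chr6:22875252-22875501 (plus strand) for Ptprz1.
Ptn: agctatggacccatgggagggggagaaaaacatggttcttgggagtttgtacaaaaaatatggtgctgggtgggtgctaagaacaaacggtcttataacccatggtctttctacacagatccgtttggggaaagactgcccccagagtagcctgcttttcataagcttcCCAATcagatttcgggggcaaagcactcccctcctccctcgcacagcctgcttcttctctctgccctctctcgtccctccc
Gas1: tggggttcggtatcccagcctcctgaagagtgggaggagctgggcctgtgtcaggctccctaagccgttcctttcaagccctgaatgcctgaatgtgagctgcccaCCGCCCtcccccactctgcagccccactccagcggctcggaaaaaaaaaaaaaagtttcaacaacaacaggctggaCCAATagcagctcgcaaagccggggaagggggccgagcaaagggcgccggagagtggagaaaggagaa
Ptprz1: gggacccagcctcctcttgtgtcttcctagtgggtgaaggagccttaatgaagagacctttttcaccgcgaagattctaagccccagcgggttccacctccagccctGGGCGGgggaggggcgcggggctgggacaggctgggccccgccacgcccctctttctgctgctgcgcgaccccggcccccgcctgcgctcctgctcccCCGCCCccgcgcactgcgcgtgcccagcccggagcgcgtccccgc

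The windows of Ptn and Gas1 each held 1 CCAAT box, starting 81 and 68 bases before the start, a motif present in 33.8% of 32851 such windows. Gas1 also held 1 GC box and Ptprz1 held 2, a motif of 32.7% of windows. None of the 3 held the TATA box (12.4% of windows), the E-box (66.2%) or the AP-1 site (6.75%). Ptn had 5 CpG pairs, close to the median of 6.00, Gas1 had 10 and Ptprz1 22, more than 85.2% of windows. Such matches describe letters and are not binding sites.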

How the data were processed

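The arrays were hybridised and scanned by the authors, 1 per sample. Per the file headers, the scanner files hold linear spot intensity, background-subtracted and detrended within an array by Feature Extraction 10.7.1.1, while the submitters' processing notes name 9.5.1.1. The deposited value table holds linear intensity normalised between arrays by a method not given in the sources used here. Here, spots the scanner marked as outliers (155 to 281 on an array) were dropped, log2 processed signal was scaled to the array's 75th percentile over 43020 spots that are not controls, and spots of a probe were averaged. A probe was well above background where at least a share of 0.5 of its spots carried the scanner's mark. Where a probe was dim on an array, folds used its own signal or, if higher, the weakest signal there that passed the background mark. Precision is limited by how few arrays there are, and no test between groups was made.

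The members and lists were chosen with earlier results of these data known. All members were named, and of each of 7 pathway lists up to 4 genes with the largest difference, with 3 similar profiles per member, of which 1 is not reported here. The marker lists of satellite cells and endothelium were also computed. Satellite cell markers were well above background for 1 of 6 genes on each cell array, 3 in wild type and 4 in transgenic ligament. Endothelial markers were well above background for 4 of 8 on each cell array, 6 in wild type and 7 in transgenic ligament. The call rule was tested on simulated data. Alternatives were 7 planned and 1 added after seeing the data, run with limma 3.58.1 in R 4.3.3 (normexp with offset 50, quantile) and Python 3.11.15.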

Additional observations from a re-analysis of the deposited data

Results flagged for a closer look

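Sdc1 and Sdc4 were past 2-fold in opposite directions in the pair of cell arrays and the pair of ligament arrays. Sdc1 differed by -1.10 in the transfected tissue minus stem cells and by 1.81 in transgenic minus wild type ligament. Sdc4 differed by -1.08 and 1.41 in the same comparisons. With normexp background correction neither gene was past 2-fold in both pairs, at -1.03 and 0.98 in Sdc1 and -0.96 and 0.63 in Sdc4. In the cell pair, the percentile over probes well above background on all arrays gave -0.96 in Sdc1 and -0.94 in Sdc4. Quantile normalization gave -0.99 in Sdc4 there. With 1 array a group the difference between the pairs was not tested. Epidermal markers were higher on the transgenic array (7 of 8), and cell division markers lower in the tissue (8 of 8), and their part was not tested.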

How the results depend on the processing

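Of 256 values of a member under an alternative, 238 stayed on the same side of 2-fold and none of the values past 2-fold changed sign. Part of these values could not move. No member spot was an outlier and every representing probe was well above background on all arrays. Keeping all spots and requiring both arrays well above background therefore changed no member value. Averaging over probes could not change the syndecans, which have a single probe each. In wild type ligament minus stem cells every alternative kept 6 members lower and 2 higher. In the tissue minus stem cells the number of members higher was 3 with quantile normalization and 2 with the deposited value table, in place of 1, and the number lower was 1 with the percentile taken over probes well above background on all arrays, in place of 3. In transgenic minus wild type ligament the number of members higher was 0 with normexp background correction, in place of 3, and Ptn was at 1.09 with the mean of all probes. Normexp adds an offset that shrinks differences of dim probes. With it, Sdc4 in the tissue minus wild type ligament was 0.70. The added setting, which averages probes without the GC-rich Gas1 probe and the Ptprz1 probe on another chromosome, gave 0.84 for Gas1 in transgenic minus wild type ligament. Over all genes, normexp gave 1063 higher and 2163 lower in the tissue minus stem cells in place of 1937 and 2375, and 401 and 569 in transgenic minus wild type ligament in place of 1030 and 1152. Requiring both arrays well above background gave 680 and 781 there. No paired analysis was possible because each group holds 1 array. Leaving out a replicate was not possible for the same reason.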
